A study of Mus musculus with 3 samples.

Results

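The genes that make cholesterol and fatty acids were examined in ST2, a stromal line from mouse bone marrow with the capacity to become osteoblasts or adipocytes. The set was a list of 33 gene names covering the enzymes of both pathways and the proteins that control them, and all 33 names were found, each on 1 row of a table of 51826 genes. Messenger RNA was measured in 3 libraries, with 1 library in each group. Cells of the Control group received an empty vector together with a control siRNA. For NELL2 overexpression the empty vector was replaced by a construct expressing NELL2, and for Fn1 knockdown the control siRNA was replaced by one directed at Fn1. The siRNA was at 30 nM in every group, and all cells were grown in medium with fetal bovine serum and transfected with the same lipid reagent. With 1 library per group no spread between replicates was measured, so no test was made and every difference is a difference between libraries.

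Cholesterol is built from acetyl-CoA through mevalonate and isoprenoid units to squalene, which is closed into a ring and trimmed and reduced to the final sterol. Fatty acids start from the same acetyl-CoA, which acetyl-CoA carboxylase and fatty acid synthase turn into palmitate, and desaturases and elongases then shape the chain. Most of these genes are targets of the sterol regulatory element binding proteins (SREBPs), which SCAP escorts out of the endoplasmic reticulum when sterol is low and INSIG proteins hold back when sterol is high. SREBP2 is best known for the cholesterol genes and SREBP1 for the fatty acid genes. Stromal cells use both pathways for membranes, and adipocytes derived from them use the fatty acid pathway for stored fat.

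The labels were checked first. Nell2 stood at 0.640 FPKM in control cells, 326 FPKM in cells overexpressing it and 1.06 FPKM in cells with Fn1 knocked down. Fn1 was at 2802, 2489 and 137 FPKM in the same order, so the knockdown library held 4.88% of the control level. Both genes moved as the labels say. FPKM is the number of fragments per kilobase of transcript, scaled to the mapped fragments of the library, which allows levels of different genes to be set side by side. The stromal markers Col1a1, Col1a2, Col3a1, Pdgfrb, Cxcl12, Vcam1 and Thy1 were present, with a summed level of 2601 to 3023 FPKM. The summed level of the 5 adipocyte markers was 1.48 FPKM in control cells, 1.53 FPKM under raised NELL2 and 1.68 FPKM under reduced Fn1, and 4 of the 5 were under 1 FPKM in every library, Adipoq and Plin1 among them. The 4 osteoblast markers summed to 5.89 to 7.19 FPKM, with Bglap and Ibsp under 1 FPKM in every library. The 3 blood and macrophage markers summed to 4.55 FPKM in control cells, 4.56 FPKM under raised NELL2 and 1.88 FPKM under reduced Fn1, mostly from Cd68 at 4.08, 3.54 and 1.57 FPKM, with Ptprc at 0.0331 to 0.0633 FPKM. The 2 epithelial markers summed to 0.0451 to 0.0619 FPKM with Epcam listed at 0, and the 2 endothelial markers to 0.553 to 0.930 FPKM. Their part in the values that follow was not tested. Depth, estimated from low values, was about 23000000 fragments for the Control library, 23700000 for NELL2 overexpression and 24200000 for Fn1 knockdown.

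Stretches upstream of the start site are shown for 4 genes, since SREBPs act there together with the factors NF-Y and SP1. Hmgcs1 was chosen because it alone held the sterol regulatory element searched for, and Dhcr7, Insig1 and Fasn because their log2 ratios after Fn1 knockdown were the highest of the 33 genes. Each is the 250 bases before the RefSeq start site on GRCm38.p6, written 5′ to 3′ on the strand of the gene. Capitals mark matches on either strand to the sterol regulatory element TCACNCCAC, the NF-Y box CCAAT, the SP1 box GGGCGG and the E-box CACGTG.
Hmgcs1 promoter (chr13:119690101-119690350, plus strand): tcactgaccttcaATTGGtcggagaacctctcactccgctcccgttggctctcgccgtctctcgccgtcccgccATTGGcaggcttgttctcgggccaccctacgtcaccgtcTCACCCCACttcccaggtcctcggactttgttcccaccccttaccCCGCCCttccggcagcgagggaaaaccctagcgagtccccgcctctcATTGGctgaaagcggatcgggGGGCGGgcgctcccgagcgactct
Insig1 promoter (chr5:28071162-28071411, plus strand): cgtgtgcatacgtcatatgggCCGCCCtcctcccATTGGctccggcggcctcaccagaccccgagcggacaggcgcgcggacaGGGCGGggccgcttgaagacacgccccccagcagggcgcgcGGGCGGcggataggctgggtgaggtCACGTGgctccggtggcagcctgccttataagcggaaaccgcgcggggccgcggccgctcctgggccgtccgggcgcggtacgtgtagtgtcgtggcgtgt
Dhcr7 promoter (chr7:143822917-143823166, plus strand): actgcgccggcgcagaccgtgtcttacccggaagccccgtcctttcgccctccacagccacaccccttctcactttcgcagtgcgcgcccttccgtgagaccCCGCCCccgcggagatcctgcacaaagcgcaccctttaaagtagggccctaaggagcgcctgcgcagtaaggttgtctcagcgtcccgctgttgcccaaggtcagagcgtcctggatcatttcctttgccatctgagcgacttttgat
Fasn promoter (chr11:120824548-120824797, minus strand): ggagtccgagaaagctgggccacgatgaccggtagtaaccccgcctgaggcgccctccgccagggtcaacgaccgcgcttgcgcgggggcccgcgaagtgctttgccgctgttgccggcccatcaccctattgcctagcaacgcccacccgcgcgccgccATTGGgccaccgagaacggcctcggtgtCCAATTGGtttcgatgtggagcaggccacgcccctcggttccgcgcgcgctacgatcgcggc

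The Hmgcs1 stretch held 1 sterol regulatory element, 3 NF-Y boxes and 2 SP1 boxes. The Insig1 stretch held 1 NF-Y box, 3 SP1 boxes and 1 E-box. The Dhcr7 stretch held 1 SP1 box, and the Fasn stretch held 3 NF-Y boxes, of which 2 overlap on opposite strands. A window was given for 26 of the 33 genes. Fdps, Stard4, Fads1, Scd2, Sqle, Fdft1 and Scd1 had none. Where a gene had several windows, the one nearest to its annotated start was used. For Acaca the start site of that window, at 84195438 on chromosome 11, lies inside the gene, which is annotated from 84129672. The stretch before its annotated start was therefore not searched. The NF-Y box was found upstream of 19 of the 26 genes, with 36 matches at a median of 62.5 bases before the start site. The SP1 box had 38 matches at a median of 121.5 bases, and positions were not counted over all windows. Counted over windows rather than genes, the NF-Y box was in 21 of 32 (65.6%). It was in 33.8% of all 32851 windows of that length and in 35.7% of the 11733 windows of genes that reached 1 FPKM. The SP1 box was in 23 of the 32 windows (71.9%), against 32.7% of all windows and 58.9% of those of expressed genes. The E-box was in 6 of 32 (18.8%), against 6.02% of all windows and 8.38% of those of expressed genes, and the sterol regulatory element in 1 of 32 (3.13%), against 1.05% and 0.997%. A match of letters is no proof of a bound site, and the absence of a match says only that these letters are not in the window.

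**Figure D1:**
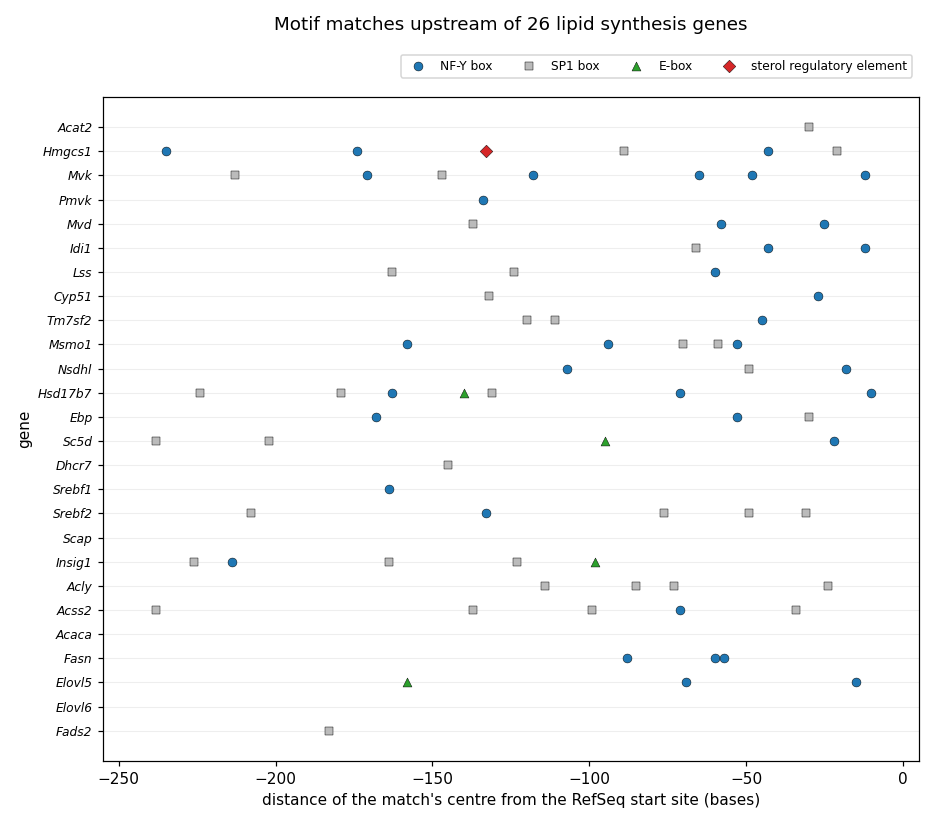
Position of motif matches upstream of the 26 genes with a RefSeq window, as the distance in bases from the start site (x axis), 1 gene per row. Each point is the centre of a match on either strand. NF-Y boxes (circles) stand upstream of 19 genes, and the single sterol regulatory element (diamond) stands 133 bases before the start of Hmgcs1.

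The 33 genes were well expressed in control cells. Their median was 29.3 FPKM, and 30 of the 33 lay above the median of 9.99 FPKM of the 12306 genes reaching 1 FPKM in that library. Their summed FPKM was 0.340% of the total of the Control library, 0.333% with NELL2 overexpression and 0.329% after Fn1 knockdown. The highest level was that of Scd2, the second stearoyl-CoA desaturase of the mouse, at 202 FPKM, followed by Hmgcs1 at 171 FPKM, Cyp51 at 73.3 FPKM and Acly at 72.0 FPKM. The lowest levels were those of Acss2 at 2.49 FPKM, Tm7sf2 at 3.42 FPKM and Elovl6 at 8.84 FPKM. Given the median coding transcript length of each gene, these levels correspond to between 59 estimated fragments for Tm7sf2 and 25311 for Scd2 in the Control library.

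**Figure D2:**
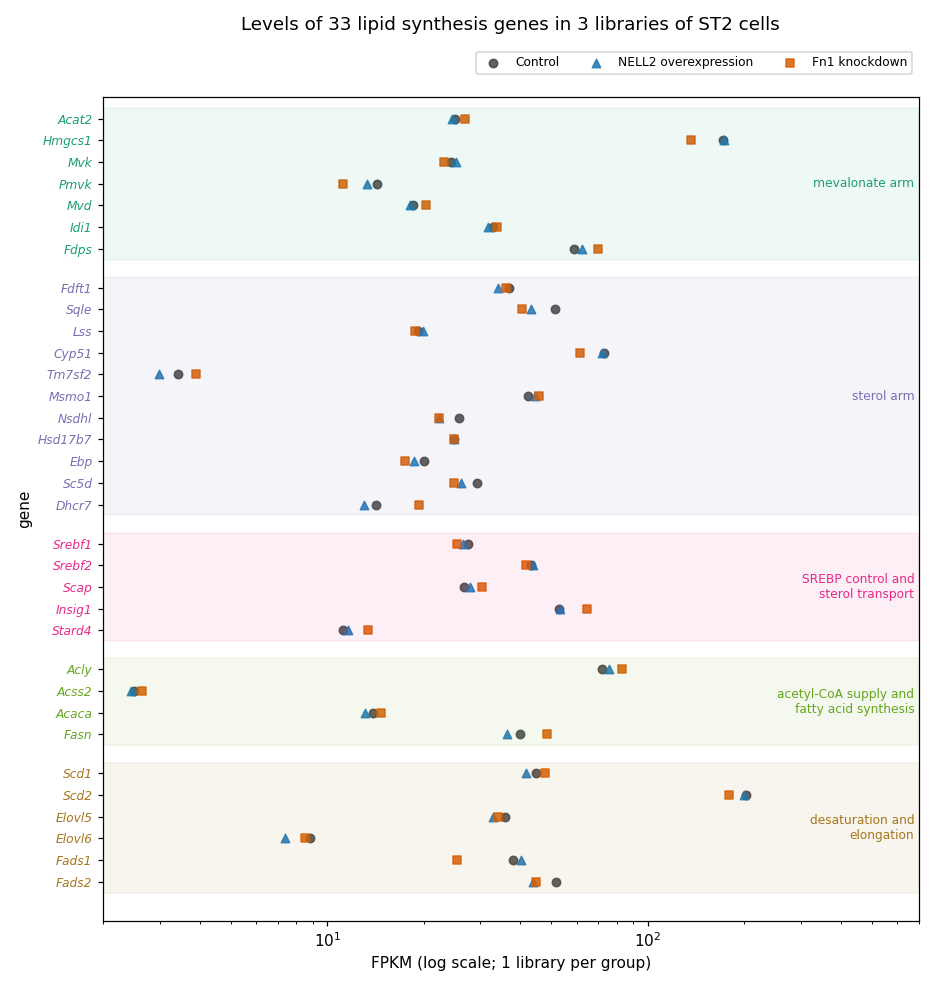
FPKM of each of the 33 genes (x axis, log scale) in the Control (circles), NELL2 overexpression (triangles) and Fn1 knockdown (squares) libraries, 1 library each, grouped by role. The 3 symbols of a gene lie close together on every row, whereas the genes range in the Control library from 2.49 FPKM for Acss2 to 202 FPKM for Scd2.

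NELL2 overexpression was compared with the Control library to ask whether raised NELL2 went with a change in lipid synthesis genes. None of the 33 genes differed by 2-fold, where 0.652% of all 12572 genes tested did, and none differed by 1.5-fold, where 2.59% of all genes did. A fold here is one of FPKM + 1 between the libraries, and a gene was tested when it reached 1 FPKM or more in either. None of the 33 was 25% higher or 20% lower in FPKM + 1 either, whereas 9.55% of all genes did, and 7.89% of the 10152 genes whose control level lay within the range of the 33. In percent of the Control library the genes lay between 83.4% for Elovl6 and 106% for Fdps. The median log2 ratio of (FPKM + 1) was -0.028, against 0.0072 over all genes tested, with 12 genes above and 21 below the Control library, where 52.3% of all genes were above. The standard deviation of these ratios was 0.098 among the 33 genes, 0.25 among all genes and 0.21 among genes within their range of level.

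The lowest log2 ratios with NELL2 overexpression were those of Sqle (-0.25), Fads2 (-0.24) and Elovl6 (-0.23), and the highest those of Fdps (0.084), Fads1 (0.077) and Msmo1 (0.074). A log2 ratio at least as far from 0 as that of Sqle was found for 12.9% of genes within the range of level of the 33. Of the role groups, the sterol arm had a median of -0.11, the desaturases and elongases -0.11, the acetyl-CoA and fatty acid synthesis genes -0.052, the mevalonate arm -0.024 and the genes of SREBP control and sterol transport 0.026. Without Acss2 the acetyl-CoA and fatty acid synthesis genes had a median of -0.085, and without Srebf1 the genes of SREBP control and sterol transport had one of 0.041.

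Fn1 knockdown was compared with the same Control library to ask whether the loss of Fn1 went with such a change. Again none of the 33 genes differed by 2-fold, where 1.23% of all 12574 genes tested did, and none by 1.5-fold, where 6.24% did. By the smaller limit, 1 gene was at least 25% higher and 4 were at least 20% lower. The higher gene was Dhcr7, which encodes the last reductase of cholesterol synthesis, and the lower ones were Fads1, Sqle, Hmgcs1 and Pmvk. Of all genes tested, 22.2% passed this limit, with 10.2% higher and 12.0% lower, and 20.7% did so within the range of level of the 33, so 5 of 33 was no larger a share than that of genes at large. In percent of the Control library the genes lay between 66.5% for Fads1 and 136% for Dhcr7. The median log2 ratio was -0.030, against -0.0028 over all genes, with 15 genes above and 18 below the Control library, where 49.5% of all genes were above. The standard deviation was 0.22 among the 33 genes, 0.34 among all genes and 0.32 among genes within their range of level.

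The role groups stood on either side of the Control library after Fn1 knockdown. The acetyl-CoA and fatty acid synthesis genes had a median log2 ratio of 0.14 with 4 of 4 genes above, and the genes of SREBP control and sterol transport a median of 0.18 with 3 of 5 above. The sterol arm had a median of -0.037 with 8 of 11 genes below, which became -0.11 without Tm7sf2. The desaturases and elongases had a median of -0.12 with 5 of 6 below, which became -0.069 without Scd2. The mevalonate arm had a median of 0.038 with 4 of 7 above, which turned to -0.014 without Fdps. Scd2, Fdps and Tm7sf2 are genes overlapped by another on the same strand. Summed FPKM of these groups was at 116% of the Control library for acetyl-CoA and fatty acid synthesis, 109% for SREBP control and sterol transport, 93.2% for the mevalonate arm, 92.5% for the sterol arm and 89.3% for the desaturases and elongases. With NELL2 overexpression the same sums lay between 94.4% and 101%. Such sums are carried by the genes of highest level, Hmgcs1 in the mevalonate arm and Scd2 among the desaturases.

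**Figure D3:**
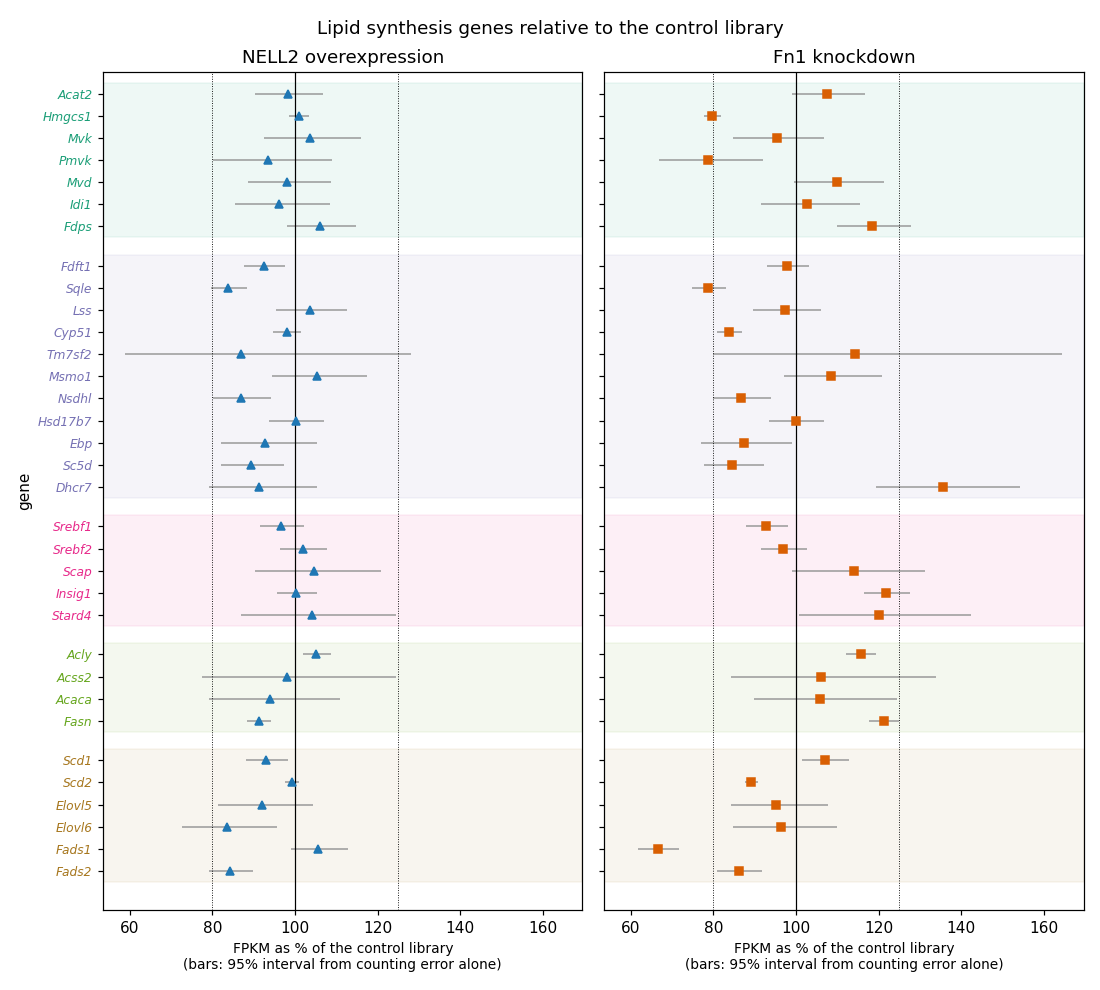
FPKM of each gene as a percentage of the Control library (x axis) with NELL2 overexpression (left panel, triangles) and after Fn1 knockdown (right panel, squares). Bars are 95% intervals from counting error alone, the solid line is the control level, and dotted lines mark 20% below and 25% above it. Points on the left lie between 83.4% and 106%, and those on the right between 66.5% and 136%.

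The values of the genes are given in the order of the pathways, as FPKM in Control, with NELL2 overexpression and with Fn1 knockdown, in that order. The 95% intervals on percentages cover counting error alone, from estimated fragments, and not the spread between replicates. In the mevalonate arm, Acat2, the cytosolic thiolase that joins 2 acetyl-CoA units, was at 25.01, 24.6 and 26.9 FPKM. Its longest coding transcript shared 35.3% of its 100-base stretches with the paralog Acat3, itself listed at 2.85 to 3.30 FPKM. Hmgcs1 (GRCm38 chromosome 13, 119690379 to 119708260, plus strand), which makes HMG-CoA, was at 171, 173 and 137 FPKM, or 101% (98.5% to 103%) and 79.7% (77.7% to 81.8%) of the Control library. Of its 100-base stretches, 10.8% were shared with the antisense gene Gm48342. Hmgcs1 was thus close to the control level with NELL2 and lower in the knockdown library, and 20.4% of genes within the range of level had a log2 ratio after knockdown at least as far from 0.

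Mvk and Pmvk encode the kinases that phosphorylate mevalonate in turn. After Fn1 knockdown the interval of Mvk included the control level and that of Pmvk did not. Mvk was at 24.4, 25.3 and 23.2 FPKM, the last being 95.3% (84.7% to 107%) of the Control library. Pmvk was at 14.3, 13.4 and 11.2 FPKM, the last being 78.6% (66.9% to 91.9%) of the Control library. The next enzymes of the arm stood at or above the control level after Fn1 knockdown. Mvd, the decarboxylase that yields the first isoprenoid unit, was at 18.5, 18.2 and 20.3 FPKM. Idi1, which isomerizes that unit, was at 33.02, 31.8 and 33.9 FPKM, and it shared 27.6% of its 100-base stretches with other genes, mostly Gm13502, itself at 9.88 to 12.3 FPKM. Fdps, the synthase of farnesyl diphosphate, was at 58.9, 62.5 and 69.8 FPKM, lowest in the Control library, at 106% (98.1% to 115%) and 118% (110% to 128%) of it. Fdps shared 75.8% of these stretches with other genes, mostly Gm43738, which overlaps it and was at 0.0354 to 0.171 FPKM.

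In the sterol arm, Fdft1 and Sqle, the first genes of the branch toward cholesterol, were highest in the Control library. Fdft1, squalene synthase, was at 36.9, 34.1 and 36.1 FPKM, and 21.5% of its 100-base stretches were shared with other genes, mostly the antisense neighbour Ctsb at 207 to 223 FPKM. Sqle, squalene epoxidase and a rate-limiting step of the arm, was at 51.5, 43.2 and 40.5 FPKM, or 83.9% (79.7% to 88.3%) with NELL2 overexpression and 78.8% (74.8% to 83.0%) after Fn1 knockdown. It was below the Control library in both, and the comparisons share that library. Lss, the cyclase that forms lanosterol, was nearly level at 19.3, 19.95 and 18.8 FPKM.

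The genes that trim lanosterol did not move as a block. Cyp51, the lanosterol demethylase, was at 73.3, 71.9 and 61.5 FPKM, or 98.1% (94.8% to 101%) and 83.9% (80.9% to 86.9%) of the Control library. Tm7sf2, a reductase of the step after it that overlaps Vps51 on the same strand, was at 3.42, 2.98 and 3.91 FPKM, and its few estimated fragments gave intervals of 58.9% to 128% and 79.8% to 164%. Msmo1, the oxidase that starts the removal of the other methyl groups, was at 42.3, 44.6 and 45.9 FPKM, or 105% (94.3% to 118%) and 108% (97.2% to 121%). Both intervals included the control level, but they rest on a transcript length of 645 bases, where its longest coding transcript has 2044. A longer length would give narrower intervals. Nsdhl, which removes the carboxyl group left by that oxidation, was at 25.7, 22.4 and 22.3 FPKM. Hsd17b7, the ketoreductase that completes the step, was at 24.8, 24.9 and 24.8 FPKM, the flattest of the 33 genes after Fn1 knockdown.

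The closing steps of the arm included the gene of highest log2 ratio. Ebp, the sterol isomerase, was at 20.04, 18.6 and 17.5 FPKM, and Sc5d, the desaturase that follows it, at 29.3, 26.2 and 24.8 FPKM. Both were highest in the Control library and lowest after Fn1 knockdown. Dhcr7 (GRCm38 chromosome 7, 143823145 to 143848410, plus strand), which reduces 7-dehydrocholesterol to cholesterol, was at 14.2, 13.0 and 19.3 FPKM, or 91.4% (79.3% to 105%) and 136% (119% to 154%) of the Control library. It thus stood above the Control library after Fn1 knockdown while Sc5d, the enzyme just before it in the pathway, stood at 84.6% (77.6% to 92.2%). A log2 ratio at least as far from 0 as that of Dhcr7 was found for 13.0% of genes within the range of level.

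Among the genes of control and transport, the SREBP genes were nearly level. Srebf1 was at 27.4, 26.5 and 25.5 FPKM and Srebf2 at 43.2, 44.01 and 41.9 FPKM, so Srebf2 exceeded Srebf1 by 1.58, 1.66 and 1.64 times in the 3 libraries. Scap, the escort of the SREBPs, was at 26.7, 27.9 and 30.4 FPKM. Insig1 (GRCm38 chromosome 5, 28071363 to 28078662, plus strand), a retention protein that is also an SREBP target, was at 53.1, 53.3 and 64.6 FPKM, or 100.4% (95.6% to 105%) and 122% (116% to 128%) of the Control library. Stard4, a carrier of cholesterol between membranes, was at 11.2, 11.7 and 13.4 FPKM. Scap, Insig1 and Stard4 were lowest in the Control library and highest after Fn1 knockdown, whereas both SREBP genes were lowest after Fn1 knockdown. With NELL2 overexpression the intervals of Scap, Insig1 and Stard4 included the control level. After Fn1 knockdown those of Scap and Srebf2 included it, and those of Insig1, Stard4 and Srebf1 did not.

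The genes that supply acetyl-CoA and build palmitate were all highest after Fn1 knockdown. Acly, which cleaves citrate to acetyl-CoA, was at 72.0, 75.8 and 83.3 FPKM, the last being 116% (112% to 119%) of the Control library. Acss2, which makes acetyl-CoA from acetate, was at 2.49, 2.45 and 2.65 FPKM, so Acly exceeded it by 28.9, 31.0 and 31.5 times. Acaca, acetyl-CoA carboxylase, was at 13.9, 13.1 and 14.8 FPKM, and 42.8% of its 100-base stretches were shared with Gm5182. Fasn (GRCm38 chromosome 11, 120805846 to 120824547, minus strand), fatty acid synthase, was at 39.9, 36.4 and 48.4 FPKM. Fasn was thus below the Control library with NELL2 overexpression (91.2%, 88.3% to 94.2%) and above it after Fn1 knockdown (121%, 118% to 125%). A log2 ratio at least as far from 0 was found for 33.9% and 26.5% of genes within the range of level.

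Of the desaturases, Scd1 and Scd2, which put the first double bond into stearate and palmitate, stood on either side of the Control library after Fn1 knockdown. Scd1 was at 44.7, 41.6 and 47.8 FPKM and Scd2 at 202, 200.4 and 180.0 FPKM. Scd2 was thus at 99.2% (97.5% to 101%) and 89.1% (87.5% to 90.7%) of the Control library. Scd2 therefore exceeded Scd1 by 4.52 times in the Control library, 4.82 times with NELL2 overexpression and 3.76 times after Fn1 knockdown. Both lie on chromosome 19, and 2.66% of the 100-base stretches of Scd1 were shared with other genes.

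Fads1 and Fads2, the desaturases of polyunsaturated fatty acids, are neighbours on chromosome 19 and differed in their pattern. Fads1 (GRCm38, 10182888 to 10196877, plus strand) was at 38.1, 40.3 and 25.4 FPKM, or 106% (99.0% to 113%) with NELL2 overexpression and 66.5% (61.8% to 71.6%) after Fn1 knockdown. Its log2 ratio of -0.57 was the farthest from 0 among the 33 genes, and 6.29% of genes within the range of level were at least as far from 0. Fads2 (GRCm38, 10062765 to 10101746, minus strand) was at 51.9, 43.8 and 44.8 FPKM, or 84.3% (79.1% to 89.8%) and 86.2% (81.0% to 91.8%). The level of Fads2 over that of Fads1 was 1.36 in the Control library, 1.09 with NELL2 overexpression and 1.76 after Fn1 knockdown. No 100-base stretch of the longest coding transcript of either gene occurred in another gene.

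The elongases were highest in the Control library. Elovl5, which extends polyunsaturated chains, was at 35.8, 32.96 and 34.1 FPKM. Elovl6, which extends palmitate, was at 8.84, 7.37 and 8.52 FPKM, or 83.4% (72.7% to 95.6%) and 96.5% (84.6% to 109.9%) of the Control library.

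**Figure D4:**
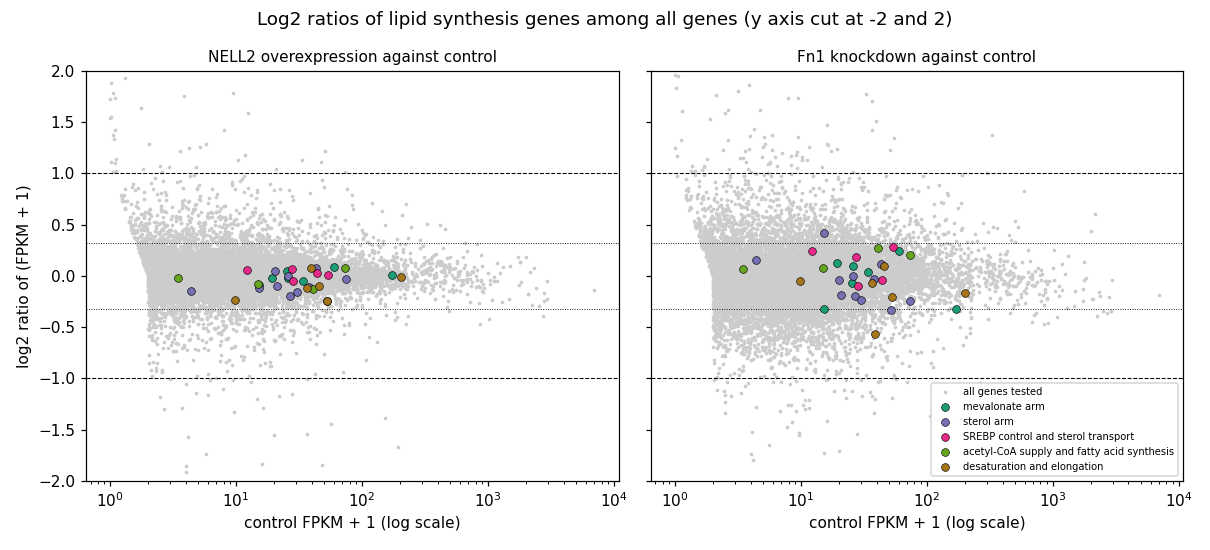
Log2 ratio of (FPKM + 1) to the Control library (y axis, cut at 2 on either side of 0) against control FPKM + 1 (x axis, log scale) for NELL2 overexpression (left) and Fn1 knockdown (right). Grey points are all genes tested and coloured points the 33 lipid synthesis genes by role, with dashed lines at 2-fold and dotted lines at 25% higher and 20% lower. No coloured point passes the dotted lines on the left, and 5 of the 33 do so on the right.

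The order of the libraries was then counted, which uses no ratio to the Control library. Fn1 knockdown held the highest value of 15 of the 33 genes and the lowest of 14. For all genes that reached 1 FPKM in a library these shares were 37.9% and 40.5%. The Control library held the highest value of 12 genes and the lowest of 6, against 30.3% and 32.1% of all genes. NELL2 overexpression held the highest value of 6 genes and the lowest of 13, against 31.7% and 27.5% of all genes. The genes highest with NELL2 overexpression were Hmgcs1, Mvk, Lss, Hsd17b7, Srebf2 and Fads1.

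Other genes of lipid handling were described from a list of 50, of which 46 reached 1 FPKM in the comparison with NELL2 overexpression and 45 in that with Fn1 knockdown. Their median log2 ratios were 0.036 and 0.0075, with 30 of 46 and 23 of 45 genes above the Control library. In each comparison 1 gene passed 1.5-fold and none passed 2-fold, where 2.59% and 6.24% of all genes passed 1.5-fold. This was Hsd17b12, the ketoreductase of the elongation of fatty acids, at 46.9 FPKM in control cells, 90.2 FPKM under raised NELL2 and 93.0 FPKM under reduced Fn1, with log2 ratios of 0.93 and 0.97. The Control library was thus the low one, and both comparisons share it. No 100-base stretch of its longest coding transcript occurred in another gene. The trans-2-enoyl-CoA reductase gene Tecr, which acts in the same elongation cycle and was chosen after its values were seen, was at 80.3, 68.7 and 62.3 FPKM.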

How the data were processed

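Polyadenylated RNA of ST2 cells was sequenced as paired ends on an MGISEQ-2000, giving 3 libraries. Nothing in the labels says whether they came from separate cultures. The authors mapped reads to the mouse transcriptome with HISAT2 (GRCm38 per the labels) and deposited FPKM per gene, and the authors name DESeq for normalization. The program that computed FPKM, the annotation and the use of strand are not given in the sources used here.

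Log2 ratios were taken of (FPKM + 1) in Python 3.11.15 (numpy 2.4.6, pandas 2.3.3, scipy 1.17.1) for genes reaching 1 FPKM in a library of the comparison. Calls were made at 2-fold, at 1.5-fold and at 25% higher or 20% lower. This scale understates changes of low genes. Names were matched to GENCODE M21, where 4 of the 33 genes overlap another gene on the same strand and 8 more one on the opposite strand only. Without strand, such reads cannot be told apart. The depth was the commonest worth of 1 fragment among genes with 1 transcript of at least 600 bases. Fragments of a gene were estimated from the median length of its coding transcripts. Where short transcripts are annotated these are too few and the exact binomial intervals too wide. Values in full were set for the 3 highest and 3 lowest log2 ratios, the 3 highest levels and any gene past 1.5-fold, and the other genes are given by their levels, some with percentages chosen after their values were seen. The 33 genes and all lists were chosen with earlier results of these data known. Shared sequence was counted as stretches of 100 bases found in transcripts of other genes, on either strand.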

Additional observations from a re-analysis of the deposited data

How the results depend on the processing

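The count of genes past 2-fold was 0 in both comparisons with a pseudocount of 0.1 or 5 FPKM, with no filter, with a filter of 5 FPKM, with median-of-ratios scaling and without the 4 genes overlapped on their own strand. A pseudocount of 0.1 put 1 gene past 1.5-fold after Fn1 knockdown, which was Fads1. A pseudocount of 5 left 2 genes at least 25% higher or 20% lower after Fn1 knockdown, Fads1 and Dhcr7. Both follow from how the pseudocount shrinks ratios. The median log2 ratio of the 33 genes ranged from -0.038 to -0.027 with NELL2 overexpression and from -0.037 to -0.027 after Fn1 knockdown over these settings. Medians of role groups of 4 to 11 genes moved more. After Fn1 knockdown the sterol arm was at -0.11 with a filter of 5 FPKM or without overlapping genes, and the desaturases and elongases at -0.069 without overlapping genes. The values that turned sign were near 0. The mevalonate arm after Fn1 knockdown moved from 0.038 to -0.014 without overlapping genes, which in that arm meant without Fdps (0.24). Insig1 with NELL2 overexpression moved from 0.0050 to -0.0045 under median-of-ratios scaling, whose factors were 0.998, 1.004 and 0.998. A pseudocount cannot turn the sign of a single gene, and the filters and the removal of overlapping genes leave the ratio of a remaining gene as it was, so for single genes the scaling was the one setting that could turn a sign. No paired analysis was possible because a group consisted of 1 library only, which also meant that none could be left out. The differences of Acss2, for example, lay within its intervals from counting error and were not detectable at this depth. For Tm7sf2, Scap, Acaca, Elovl5, Msmo1, Idi1 and Stard4, among others, the intervals also depend on the short transcript length used. A difference inside them thus says less about depth.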
